A study of Mus musculus with 4 samples.

Results

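Serine proteases of the *Prss* family that are made in the mouse testis were examined in RNA from whole testes after busulfan (BUS) damage, with and without ursolic acid (ULA). The members were the rows of the deposited count table whose Ensembl identifier carried one of the symbols *Prss21*, *Prss37*, *Prss39*, *Prss41*, *Prss50*, *Prss51*, *Prss54*, *Prss55* or *Prss58*, which gave 9 genes of 57010 identifiers, and acrosin was left out of the set. All 9 had enough counts to be tested, as had 23023 genes in all. The ULA group was male ICR mice, 8 weeks old when bought, that received 1 intraperitoneal injection of 30 mg/kg BUS and, starting 2 weeks later, 50 mg/kg ULA by daily gavage for 4 weeks. The BUS group was mice of the same strain, sex and age that received the same injection and then the gavage vehicle, DMSO in corn oil. BUS is an alkylating drug that kills dividing germ cells, and ULA is a plant triterpenoid. Both groups therefore carried the BUS injection, and untreated mice and the lower ULA doses were not analysed here. Each group had 2 libraries, which the methods call biological replicates with a single technical replicate. The labels do not say which animals gave them, and the p-values measure the spread between these libraries alone.

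Trypsin-like serine proteases cut proteins with a catalytic triad, a histidine, an aspartate and a serine that lie far apart in the chain and meet in the folded active site. The testis makes an unusually large set of them, mostly in spermatocytes and spermatids, and their proteins end up in the acrosome (the enzyme sac over the sperm nucleus) or on the sperm surface. Several, *Prss37* and *Prss55* among them, are needed in mice for the maturation of the sperm surface protein ADAM3 and for the passage of sperm into the oviduct, and some members have lost a triad residue and are thought to act without cutting.

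The stretch around the third triad position is shown because the members differ most in the codon there. Each is 30 bases of the coding strand in the last exon, read 5′ to 3′ from the GRCm38 genome, with the codon aligned to the catalytic serine of mouse *Prss1* (a trypsinogen of the pancreas, used as the reference) in capitals. *Prss1* itself lies on chromosome 6, on the plus strand at chr6:41463587-41463616.
Prss1: gacTCTggtggccctgtggtctgcaatgga
Prss21 (chr17:23872798-23872827, plus): gacTCGggaggacccttggcctgcgaccag
Prss39 (chr1:34502627-34502656, plus): gacTCTgggggccccctggtctgcttcctg
Prss41 (chr17:23837116-23837145, minus): gacTCAggaggacccttggtctgcaacatg
Prss51 (chr14:64097370-64097399, plus): gacAGCggggcacccatggtctgtgctaac
Prss55 (chr14:64075762-64075791, minus): gacAGTgggggaccgcttgtctgcaccaca
Prss37 (chr6:40515045-40515074, minus): gttGCTgtagctactgtcatttgtaaaaac
Prss50 (chr9:110864284-110864313, plus): ataACTggcgagcccctggtctgctcttca
Prss54 (chr8:95559790-95559819, minus): gaaCCAggaagccctatgatgtgccaggca
Prss58 (chr6:40895479-40895508, minus): gtcACGgctgccccagcagtctgcaacggg

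The codon encodes serine in *Prss21*, *Prss39*, *Prss41*, *Prss51* and *Prss55*, alanine in *Prss37*, threonine in *Prss50* and *Prss58*, and proline in *Prss54*. The other triad positions set *Prss39* and *Prss54* apart from the rest, and their stretches are shown beside those of *Prss55*, with the aligned codon in capitals.
Prss39, aspartate position (chr1:34500140-34500169, plus): cgtctggagaagAACattgtcctgatccag
Prss54, aspartate position (chr8:95565578-95565607, minus): tcaatgggcaatAACatagccctcctgaag
Prss55, aspartate position (chr14:64079311-64079340, minus): aacatggacaacGACattgccttgttgctg
Prss54, histidine position (chr8:95571019-95571048, minus): gagttctggatcctcagcaccgccTCCgct
Prss55, histidine position (chr14:64081679-64081708, minus): gagtggtggatcctcaccgtggccCACtgc

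*Prss39* and *Prss54* encode asparagine at the aspartate position, and *Prss54* encodes serine at the histidine position. In all, 4 of 9 members (*Prss21*, *Prss41*, *Prss51* and *Prss55*) keep the 3 triad codons, 4 keep 2, and *Prss54* keeps 0. By comparison, 8 of 9 other testis serine proteases keep all 3, with *Prss45* as the exception (proline at the serine position). All 57 aligned codons were the same when each gene was aligned to *Prss1* alone, where the 3 codons of *Prss1* itself could not differ.

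The deposited values were raw counts per gene, and levels are given as CPM, counts scaled to a common library total after TMM normalisation, which corrects for differences in library composition. The ULA libraries held 16312898 and 15078828 counts and the BUS libraries 18147335 and 18216380. The ULA libraries differed from the BUS libraries in make-up: 87.4% and 76.9% of their counts fell on protein-coding genes, against 96.9% and 96.3% in BUS, and 1 identifier with no symbol (ENSMUSG00000119584) took 7.88% and 18.5% in ULA, against 0.00418% and 0.000637% in BUS. *Lars2*, picked after its values were seen, took 0.714% and 1.31% in ULA, against 0.0026% and 0.00189% in BUS. The differences in make-up ran along with the treatment, and their source was not tested. Log2 CPM correlated across genes at 0.979 between the ULA libraries and 0.972 between the BUS libraries, where genes are not independent replicates. Fold changes are ULA over BUS from edgeR's quasi-likelihood test, with Benjamini-Hochberg adjustment over all 23023 genes and a threshold of 0.05.

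Of the 9 proteases, 5 rose in ULA testes (*Prss37*, *Prss51*, *Prss54*, *Prss55* and *Prss58*) by edgeR's quasi-likelihood test, and 4 did not pass it. Among all genes tested 27.0% passed, 11.8% as higher and 15.3% as lower. No member passed as lower, while at an unadjusted p under 0.05 there were 6 members higher and 1 lower, and DESeq2 and limma-voom each called 5 higher and 0 lower. The median log2 fold change of the 9 members was 0.71, beside 0.02 over all genes tested and -0.22 over the 16271 protein-coding genes tested. Summed over the 9 members, the level was 583 and 719 CPM in the ULA libraries, against 301 and 416 CPM in the BUS libraries, so the groups did not overlap. In whole tissue, a larger share of the cells that make a transcript and more of it per cell cannot be told apart.

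**Figure D1:**
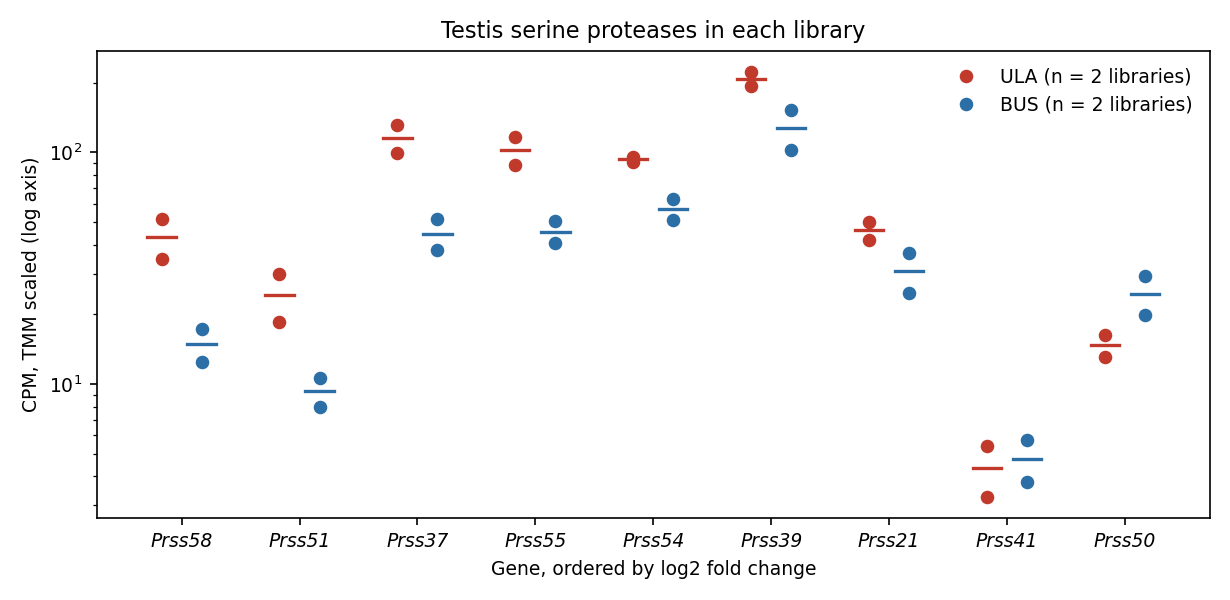
TMM-scaled CPM (log axis) of each of the 9 testis serine proteases in the 2 ULA (red, left) and 2 BUS (blue, right) libraries, with a bar at each group's mean, ordered by log2 fold change. The ULA points lie above the BUS points for 7 genes, overlap them for *Prss41* and lie below them for *Prss50*.

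The calls rested on ULA replicate 2. Without ULA replicate 2, 0 of the 9 members passed edgeR's test (4 were higher and 0 lower at an unadjusted p under 0.05), and over all genes 656 passed as higher and 714 as lower, against 2706 and 3512 with all 4 libraries. The median log2 fold change of the members was then 0.69, beside 0.71 with all 4. Without each of the other libraries in turn, 4 to 7 members passed as higher. A fit that leaves out 1 library assumes that the lone library of its group varies like the other group.

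*Prss37* (ENSMUSG00000029909, chromosome 6, 40514824 to 40519508, minus strand) encodes a protein that lacks the catalytic serine. Mice need it for ADAM3 maturation and for sperm to enter the oviduct. It had 1635 and 1659 counts in the ULA libraries, 98.9 and 131.5 CPM, against 718 and 1043 counts in the BUS libraries, 37.8 and 51.3 CPM. Both ULA libraries stood well above both BUS libraries. The mean was 115 ± 23.0 CPM in ULA and 44.6 ± 9.59 CPM in BUS (SD, n = 2 each), a log2 fold change of 1.37 with a standard error of 0.26 (edgeR adjusted p = 0.00927). Without ULA replicate 2 the log2 fold change was 1.16 and the adjusted p 0.0973.

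*Prss55* (ENSMUSG00000034623, chromosome 14, 64075438 to 64090162, minus strand) keeps the complete triad and is likewise needed for male fertility and ADAM3 maturation in mice. It had 1460 and 1467 counts in the ULA libraries, 88.3 and 116.3 CPM, against 771 and 1025 counts in the BUS libraries, 40.6 and 50.5 CPM. The counts of the ULA libraries were nearly equal, and the lower ULA level was well above the higher BUS level. The mean was 102 ± 19.8 CPM in ULA and 45.5 ± 6.995 CPM in BUS (SD, n = 2 each), with a log2 fold change of 1.17 and a standard error of 0.25 (edgeR adjusted p = 0.0128). The adjusted p was 0.192 without ULA replicate 2.

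*Prss51* (ENSMUSG00000052099, chromosome 14, 64086234 to 64097678, plus strand) is a neighbour of *Prss55* on the opposite strand, and mice without it are fertile. The gene spans of both overlap but share 0 exon bases. It had 305 and 376 counts in the ULA libraries, 18.5 and 29.8 CPM, against 152 and 216 counts in the BUS libraries, 7.997 and 10.6 CPM. ULA replicate 2 stood apart above the other libraries, and the groups did not overlap. The mean was 24.1 ± 8.03 CPM in ULA and 9.31 ± 1.86 CPM in BUS (SD, n = 2 each), and the log2 fold change was 1.37 with a standard error of 0.33 (edgeR adjusted p = 0.0190, and 0.252 without ULA replicate 2).

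*Prss58* (ENSMUSG00000051936, chromosome 6, 40895270 to 40900387, minus strand), also named Tryx3, has threonine at the serine position and lies on the same chromosome and strand as *Prss37*. It had 571 and 649 counts in the ULA libraries, 34.5 and 51.4 CPM, against 237 and 351 counts in the BUS libraries, 12.5 and 17.3 CPM. The lower ULA library was still about as far above the higher BUS library as the ULA libraries were from each other. Its log2 fold change of 1.53, with a standard error of 0.30, was the highest of the 9 (edgeR adjusted p = 0.0103), and 7.05% of all genes tested had a higher one. With the correction for GC content and length it was 1.02, below *Prss51* (1.31) and *Prss55* (1.16). Without ULA replicate 2 it was 1.23, with an adjusted p of 0.0988.

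*Prss54* (ENSMUSG00000048400, chromosome 8, 95559069 to 95576340, minus strand) encodes an acrosomal protein and is the member with none of the triad codons. It had 1504 and 1208 counts in the ULA libraries, 91.0 and 95.8 CPM, against 973 and 1273 counts in the BUS libraries, 51.2 and 62.7 CPM. The raw counts of the groups overlapped, and the levels after scaling did not. The mean was 93.4 ± 3.37 CPM in ULA and 56.9 ± 8.11 CPM in BUS (SD, n = 2 each), a log2 fold change of 0.71 with a standard error of 0.22 (edgeR adjusted p = 0.0433). The call was lost with library size as the sole scaling (log2 fold change 0.48, adjusted p 0.261), without a filter on low counts (0.62, adjusted p 0.0777), and without either ULA library or BUS replicate 1 (adjusted p 0.226 without ULA replicate 1, 0.396 without ULA replicate 2 and 0.0871 without BUS replicate 1).

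*Prss39* (ENSMUSG00000026125, chromosome 1, 34498410 to 34503063, plus strand), known as TESP1, is a protease of the mouse acrosome. It had the highest counts of the 9, 3195 and 2806 in the ULA libraries, 193 and 222 CPM, against 1956 and 3086 in the BUS libraries, 103 and 152 CPM. The levels did not overlap, although BUS replicate 2 had more raw counts than ULA replicate 2. The mean was 208 ± 20.6 CPM in ULA and 127 ± 34.6 CPM in BUS (SD, n = 2 each), and the log2 fold change of 0.71, with a standard error of 0.25, did not pass edgeR's test (adjusted p = 0.0659). It passed with upper-quartile scaling (log2 fold change 0.98, adjusted p 0.0399), with a correction for GC content and length (0.85, adjusted p 0.0467) and without BUS replicate 2 (1.00, adjusted p 0.00117). It was 0.43 without BUS replicate 1 and 0.46 with library size as the sole scaling (adjusted p 0.230 and 0.275). Its longest stretch shared with another testis protease was 50 identical bases with *Prss40*, so reads from that stretch could come from either gene.

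*Prss21* (ENSMUSG00000024116, chromosome 17, 23868056 to 23873114, plus strand) encodes testisin, a protease held on the sperm surface by a lipid anchor. It had 693 and 633 counts in the ULA libraries, 41.9 and 50.2 CPM, against 470 and 749 counts in the BUS libraries, 24.7 and 36.9 CPM. BUS replicate 1 was the lowest library, and the levels of the groups did not overlap. The mean was 46.1 ± 5.83 CPM in ULA and 30.8 ± 8.59 CPM in BUS (SD, n = 2 each), and the log2 fold change of 0.58, with a standard error of 0.27, did not pass edgeR's test (adjusted p = 0.128). Without BUS replicate 2 it was 0.88 and passed (adjusted p 0.00378), without BUS replicate 1 it was 0.30 (adjusted p 0.419), and with library size as the sole scaling 0.34 (adjusted p 0.486).

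*Prss41* (ENSMUSG00000024114, chromosome 17, 23836785 to 23844172, minus strand), of the TESSP group of testis proteases, was the least abundant. It had 54 and 68 counts in the ULA libraries, 3.27 and 5.39 CPM, against 72 and 116 counts in the BUS libraries, 3.79 and 5.71 CPM. The groups overlapped, with the first replicate of each group low and the second high. The mean was 4.33 ± 1.501 CPM in ULA and 4.75 ± 1.36 CPM in BUS (SD, n = 2 each), a log2 fold change of -0.14 with a standard error of 0.40 (edgeR adjusted p = 0.802), and the sign turned with upper-quartile scaling (0.13) and with protein-coding genes alone (0.040). It overlaps *Prss32*, on the opposite strand, by 59 of its 2642 exon bases, and *Prss32* had 3 and 1 counts in ULA and 0 and 3 in BUS.

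*Prss50* (ENSMUSG00000048752, chromosome 9, 110857967 to 110864629, plus strand), known as TSP50, has threonine in place of the catalytic serine and was the member with the lowest fold change. It had 217 and 205 counts in the ULA libraries, 13.1 and 16.3 CPM, against 377 and 594 counts in the BUS libraries, 19.8 and 29.2 CPM. Both ULA libraries were below both BUS libraries. The mean was 14.7 ± 2.21 CPM in ULA and 24.5 ± 6.65 CPM in BUS (SD, n = 2 each), and the log2 fold change of -0.74, with a standard error of 0.30, did not pass edgeR's test (adjusted p = 0.0872). It passed with library size as the sole scaling (-0.99, adjusted p 0.0402) and without BUS replicate 1 (-1.01, adjusted p 0.00331), and it was -0.096 after the correction for GC content and length. *Prss50* had the highest GC content of the 9 transcripts, 61.0%, the others lying between 46.0% and 54.0%.

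**Figure D2:**
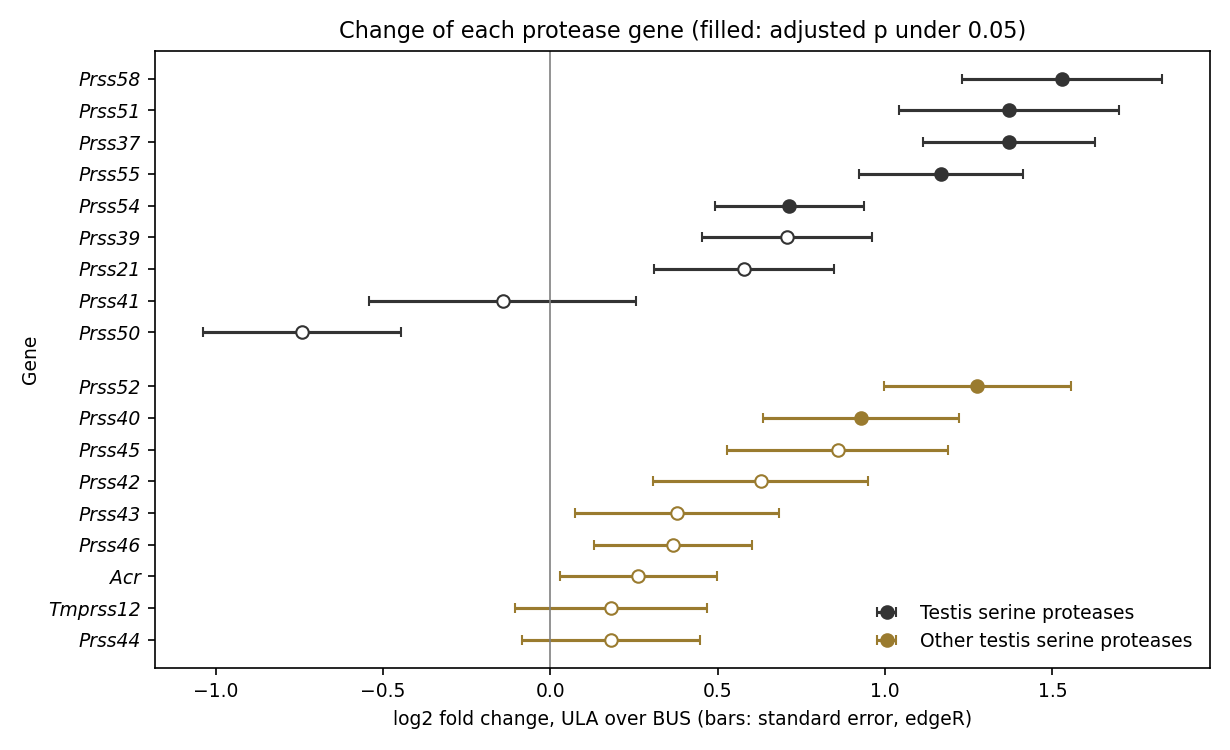
Log2 fold change of ULA over BUS (points, with the standard error of edgeR's fit as bars) for the 9 testis serine proteases (black) and 9 other testis serine proteases (brown); filled points passed an adjusted p of 0.05. The black points run from 1.53 for *Prss58* to -0.74 for *Prss50*, and 5 of the black and 2 of the brown points are filled.

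Most members had both ULA libraries on the same side of BUS. Both ULA libraries were above both BUS libraries for 7 members and below them for 1, where 37.9% of all genes tested had both ULA libraries above and 37.2% both below. By an unadjusted p under 0.05 with a fold over 1.5, 6 members were higher and 1 lower, against 19.4% and 22.7% of all genes tested.

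The libraries of a group also differed from each other in the same direction for all 9 members. Every member was higher in ULA replicate 2 than in ULA replicate 1, by 1.05 to 1.65 times, as were 48.8% of all genes tested. Each was also higher in BUS replicate 2 than in BUS replicate 1, by 1.22 to 1.51 times, as were 46.9% of all genes tested. The same held in both groups for all 12 markers of condensing spermatids listed below. In BUS it also held for all 12 round spermatid markers, all 14 spermatocyte markers and all 9 other testis serine proteases. In ULA it held for 8, 5 and 5 of these, and for 0 of 12 Sertoli cell markers in either group. The spread between libraries of a group was thus partly common to the members but not particular to them, and its source was not tested.

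Levels of different genes were compared as CPM per kilobase of exon. *Prss39* was the highest in both groups, at 155.9 ± 15.5 in ULA and 95.6 ± 26.0 in BUS (SD, n = 2 each), followed by *Prss37* (102.6 ± 20.5 in ULA, 39.7 ± 8.54 in BUS), *Prss55* (72.9 ± 14.1 in ULA, 32.4 ± 4.99 in BUS) and *Prss54* (46.8 ± 1.69 in ULA, 28.6 ± 4.07 in BUS). In ULA the order went on with *Prss58* at 43.9 ± 12.2, *Prss21* at 20.7 ± 2.63, *Prss51* at 19.4 ± 6.45, *Prss50* at 10.1 ± 1.52 and *Prss41* at 1.64 ± 0.568 CPM per kilobase. The libraries of *Prss54* and *Prss58* overlapped in ULA, as did those of *Prss21* and *Prss51*. In BUS the order below *Prss54* was *Prss50* at 16.9 ± 4.57, *Prss58* at 15.2 ± 3.47, *Prss21* at 13.9 ± 3.87, *Prss51* at 7.49 ± 1.498 and *Prss41* at 1.798 ± 0.514. There the libraries of *Prss37*, *Prss55* and *Prss54* overlapped with their neighbours, and so did those of *Prss50*, *Prss58* and *Prss21*. With the longest transcript in place of all exons, *Prss21* in BUS came to 19.2 CPM per kilobase, above *Prss50*.

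Because any scaling of a library cancels out within it, the members were also set against each other inside each library, as log2 CPM minus the mean log2 CPM of the 9. *Prss58* was at -0.15 and 0.02 in ULA, against -0.85 and -0.85 in BUS. *Prss37* was at 1.37 and 1.38 in ULA, against 0.75 and 0.72 in BUS. *Prss50* was at -1.54 and -1.64 in ULA, against -0.18 and -0.09 in BUS. The make-up of the family therefore differed between the groups by more than it differed between libraries of a group for these 3 genes, the difference of the means being 0.79, 0.64 and -1.45. Scaling cancels here but GC content and length do not: relative to the mean log2 fold change of the 9, the correction for both took *Prss58* to 0.28, beside 0.80 without it, *Prss37* to 0.23, beside 0.64, and *Prss50* to -0.84, beside -1.47. *Prss51* (0.61) and *Prss55* (0.43) stood higher within the family in ULA, and *Prss41* (-0.88) and *Prss21* (-0.13) lower, also without overlap. The groups of *Prss21* all but touched, at 0.132 in ULA replicate 1 and 0.134 in BUS replicate 1. *Prss39* and *Prss54* held their place, with differences of -0.0024 and -0.011 and overlapping groups. With 2 libraries per group an exact two-sided permutation test cannot give a p below 0.333, which is what it gave for the 7 members without overlap. The lack of overlap therefore carries little weight by itself.

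In shares of the summed CPM of the 9, *Prss50* made up 2.25% and 2.26% in the ULA libraries, against 6.58% and 7.03% in the BUS libraries. *Prss37* made up 16.97% and 18.3% in ULA, against 12.5% and 12.3% in BUS. *Prss39* took the largest share throughout, 33.2% and 30.9% in ULA and 34.2% and 36.5% in BUS.

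The members that passed as higher held complete and incomplete triads. Of the 5, *Prss51* and *Prss55* keep all 3 codons, *Prss37* and *Prss58* lack the serine codon, and *Prss54* keeps 0. Of the 4 that did not pass, *Prss21* and *Prss41* keep all 3, *Prss39* lacks the aspartate codon and *Prss50* the serine codon. This sorting depends on the threshold. *Prss54* and *Prss39* fell on opposite sides of it with a log2 fold change of 0.71 each (edgeR adjusted p = 0.0433 and 0.0659). Both changed side under some of the other settings. *Prss58* and *Prss50*, both with a threonine codon at the serine position, had the highest and the lowest log2 fold change of the 9 before any correction for GC content and length, 1.53 and -0.74.

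The 9 remaining testis serine proteases were acrosin (*Acr*), *Tmprss12* and 7 other *Prss* genes, several of which lie in a cluster on chromosome 9. *Prss52* and *Prss40* rose in ULA testes and 7 did not pass edgeR's test, and the median log2 fold change of the 9 was 0.38. *Prss52*, on chromosome 14 like *Prss51* and *Prss55*, had 53.2 and 77.2 CPM in ULA, against 22.6 and 31.2 CPM in BUS (log2 fold change 1.28, standard error 0.28, adjusted p = 0.0146). *Prss40*, the sequence relative of *Prss39* on chromosome 1, had 34.4 and 40.2 CPM in ULA, against 14.9 and 24.3 CPM in BUS (0.93, standard error 0.29, adjusted p = 0.0443). The call of *Prss40* was lost with library size as the sole scaling, with limma-voom and without either ULA library or BUS replicate 1, and that of *Prss52* without ULA replicate 2.

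Of the chromosome 9 genes, *Prss45* had 66.1 and 62.2 CPM in ULA, against 22.9 and 47.8 CPM in BUS (log2 fold change 0.86, adjusted p = 0.0788 by edgeR), and *Prss42*, linked to meiosis in the mouse, 44.4 and 52.6 CPM in ULA, against 21.3 and 41.5 CPM in BUS (0.63, adjusted p = 0.161). Neither overlapped between the groups. *Prss43*, *Prss44* and *Prss46* had log2 fold changes of 0.38, 0.18 and 0.37. *Acr*, which encodes the main protease of the acrosome, had 167 and 164 CPM in ULA, against 117 and 159 CPM in BUS (0.26, adjusted p = 0.407). *Tmprss12* was at 0.18, with overlapping groups. The signs of *Prss44* and *Tmprss12* turned with library size as the sole scaling, to -0.057 and -0.046.

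The *Prss* genes known from other tissues were a contrast by their median, though not in every gene. Of 20 listed, 7 had enough counts, of which 2 fell by edgeR's test and 5 missed its threshold, and their median log2 fold change was -0.84. *Prss35*, a protease-like gene best known from the ovary, had 34.0 and 17.4 CPM in ULA, against 117.9 and 71.7 CPM in BUS (log2 fold change -1.88, standard error 0.36, adjusted p = 0.00992). *Prss36* had 2.90 and 2.38 CPM in ULA, against 13.8 and 6.99 CPM in BUS (-1.97, standard error 0.42, adjusted p = 0.0132), a call lost with the correction for GC content and length and without ULA replicate 2. *Prss12*, the gene of neurotrypsin, had 1.69 and 0.713 CPM in ULA, against 6.58 and 1.77 CPM in BUS (-1.75, adjusted p = 0.0744). *Prss16* and *Prss56*, picked after their values were seen, were above 0, at 1.28 and 0.38 (edgeR adjusted p = 0.1135 and 0.451). *Prss16* was low, at 0.67 and 0.71 CPM in ULA, against 0.21 and 0.34 CPM in BUS. *Prss1*, *Prss3*, *Prss22* and *Prss34* were at 0 counts in all 4 libraries, where 3 counts, the limit that a count of 0 allows, are 0.182 and 0.238 CPM in ULA and 0.158 and 0.148 CPM in BUS.

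Genes that act with *Prss37* and *Prss55* in maturing ADAM3, or whose loss in mice keeps sperm from the oviduct, numbered 18, all tested. By edgeR's test 7 of these rose, 1 fell and 10 missed the threshold, with a median log2 fold change of 0.61. *Adam3* itself, which was picked here after its values were seen, had 837 and 1059 CPM in ULA, against 384 and 534 CPM in BUS (log2 fold change 1.05, standard error 0.28, adjusted p = 0.0258). The list had 0 genes past edgeR's test without ULA replicate 2 (4 higher and 1 lower at an unadjusted p under 0.05), with a median of 0.48. *Adam6a*, a partner of ADAM3, had 73.3 and 86.6 CPM in ULA, against 30.6 and 46.5 CPM in BUS (1.05, adjusted p = 0.0223). *Rnase10*, best known from the mouse epididymis, was low, at 4.30 and 4.68 CPM in ULA, against 1.16 and 1.33 CPM in BUS (1.84, adjusted p = 0.0130).

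The gene that fell was *Tpst2*, a tyrosine sulfating enzyme of the Golgi that many tissues express, with 9.02 and 7.29 CPM in ULA, against 23.5 and 16.3 CPM in BUS (log2 fold change -1.29, edgeR adjusted p = 0.0199). *Adam6a* and *Rnase10* kept no call without ULA replicate 2, nor did *Tpst2*, which also lost it with the correction for GC content and length, as *Adam6a* did with library size as the sole scaling. Of the 7 epididymis markers, 6 were too low to test, with 0 to 6 counts a library and *Adam7* at 0 in all 4. The seventh, *Defb21*, was at 1.45 and 2.54 CPM in ULA, against 0.894 and 0.837 CPM in BUS, and did not pass edgeR's test (adjusted p = 0.0871).

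Among 17 acrosome genes 3 rose and 14 did not pass, with a median log2 fold change of 0.51. Of those that did not pass, *Spaca6* and *Gopc*, picked after their values were seen, were below 0, at -0.29 and -0.035. *Spaca7*, a secreted acrosomal protein, had 47.0 and 54.4 CPM in ULA, against 24.6 and 29.0 CPM in BUS (log2 fold change 0.92, edgeR adjusted p = 0.0240). *Acrv1*, an acrosomal matrix protein, was at 0.88 (adjusted p = 0.0243) and *Eqtn*, equatorin, at 0.81 (adjusted p = 0.0324). All 3 calls were lost with library size as the sole scaling, with the correction for GC content and length, and without ULA replicate 1 or ULA replicate 2.

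The serine protease inhibitors included *Serpinb6c* and *Spink2*, both picked after their values were seen, with log2 fold changes above 0. By edgeR's test 3 of 12 listed fell and 9 missed the threshold, and the median log2 fold change was -0.93. *Serpina5*, the protein C inhibitor that mice need for male fertility, had 214 and 96.9 CPM in ULA, against 761 and 362 CPM in BUS (log2 fold change -1.85, standard error 0.44, adjusted p = 0.0183). *Serpinf1*, of pigment epithelium-derived factor, and *Serping1*, of the complement inhibitor C1-INH, had log2 fold changes of -1.79 and -1.75 (adjusted p = 0.0156 and 0.0231). Without ULA replicate 2 these 3 calls were lost. *Spink2*, the acrosin inhibitor of sperm, had 142 and 158 CPM in ULA, against 91.6 and 131.8 CPM in BUS and was not among the genes that passed (0.42, adjusted p = 0.211). *Serpinb6c* was low, at 2.12 and 2.54 CPM in ULA, against 0.947 and 1.08 CPM in BUS (1.19, adjusted p = 0.0646). The median of the list was -0.50 without BUS replicate 1.

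By median, markers of spermatocytes and spermatids moved with the members, and those of spermatogonia and somatic cells moved the other way. These are given as measured facts. Of 12 markers of condensing spermatids, 11 rose, with a median log2 fold change of 1.36 and a summed level of 9362 and 14310 CPM in ULA, against 3448 and 4840 CPM in BUS. *Tnp1*, a transition protein that packs spermatid DNA, had 431 and 647 CPM in ULA, against 116 and 153 CPM in BUS (log2 fold change 2.00, edgeR adjusted p = 0.00558). *Tnp2* and *Hmgb4* were at 1.89 and 1.34. When ULA replicate 2 was left out, 1 of the 12 markers passed, with a median of 1.10. *Prss37*, *Prss51*, *Prss55* and *Prss58*, with log2 fold changes of 1.17 to 1.53, were thus within the range of this list, 0.88 to 2.00, and the other 5 members were below it. The part of cell make-up in the members' changes was not tested.

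The earlier germ cells gave values of both signs, and fewer of their markers passed than of the condensing spermatid list. Beside the counts that follow, 11.8% of all genes tested passed as higher and 15.3% as lower. Of 12 round spermatid markers 3 rose (median log2 fold change 0.55), their sum being 2002 and 2263 CPM in ULA, against 1222 and 1602 CPM in BUS. *Tssk2*, a sperm kinase, was at 1.02 (edgeR adjusted p = 0.0215). Of 14 spermatocyte markers 2 rose (median 0.45), among them *Tex15*, a meiotic recombination gene, at 1.10 (adjusted p = 0.0149), and the sum was 4777 and 4859 CPM in ULA, against 3072 and 4207 CPM in BUS. Of 12 spermatogonia markers 5 fell (median -0.81), with sums of 229 and 172 CPM in ULA, against 452 and 383 CPM in BUS. *Zbtb16*, a transcription factor of undifferentiated spermatogonia, was at -1.61 (adjusted p = 0.00803). The same list held *Gfra1* and *Nanos3*, picked after their values were seen, at 0.23 and 0.35. Neither passed edgeR's test (adjusted p = 0.624 and 0.593). *Acr*, *Acrv1*, *Izumo1* and *Spaca1* stand both among the acrosome genes and among the round spermatid markers, and the germ cell lists hold no member. These 3 lists had 0 genes past the test without ULA replicate 2 (0 round spermatid and 1 spermatocyte marker higher and 3 spermatogonia markers lower at an unadjusted p under 0.05), their medians being 0.55 for round spermatids, 0.57 for spermatocytes and -0.70 for spermatogonia.

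By the median of each list, somatic markers were lower in ULA testes. Not every gene was: *Tagln* (smooth muscle) and *Tek* (endothelium), picked after their values were seen, had log2 fold changes of 0.029 and 0.0975. Among all genes tested 15.3% passed as lower. Of 9 Leydig cell markers 9 fell (median log2 fold change -2.57), with a summed level of 1312 and 773 CPM in ULA, against 8636 and 5913 CPM in BUS. Of 12 Sertoli cell markers 10 fell (median -1.49), with 1701 and 1041 CPM in ULA, against 5490 and 2770 CPM in BUS. Smooth muscle and peritubular markers fell in 4 of 6 cases (median -1.17) and endothelial markers in 2 of 6 (median -0.67). The 8 macrophage markers had a median of -1.13, with 0 past edgeR's test, 3 lower at an unadjusted p under 0.05, 1 lower by DESeq2 and 0 by limma-voom, and their sum overlapped between the groups, 198 and 131 CPM in ULA, against 589 and 144 CPM in BUS. Without BUS replicate 1 the medians were -0.86 for Sertoli cells, -0.63 for smooth muscle and 0.20 for macrophages, and 8 Sertoli, 2 smooth muscle and 1 endothelial marker passed as lower. The medians of the other testis serine proteases (0.19), the ADAM3 genes (0.35), the acrosome genes (0.28), the spermatocyte markers (0.21) and the *Prss* genes of other tissues (-0.54) were also over 1.5 times nearer 0 without that library. Of the Leydig and Sertoli cell markers, 8 and 3 passed as lower without ULA replicate 2. The smooth muscle and the endothelial list then had 0 past the test (3 and 1 lower at an unadjusted p under 0.05), and limma-voom on all 4 libraries called 0 endothelial markers, with 2 lower at an unadjusted p under 0.05.

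**Figure D3:**
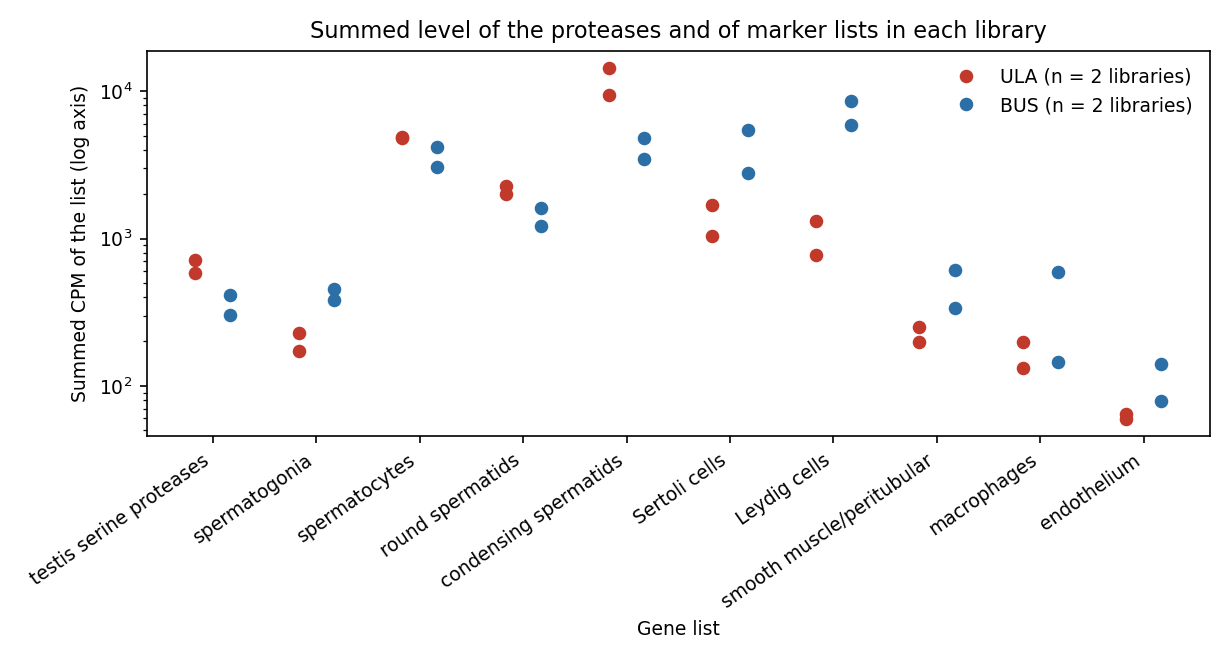
Summed TMM-scaled CPM (log axis) of the 9 testis serine proteases and of the marker lists of 9 cell types in each ULA (red, left) and BUS (blue, right) library. The proteases, at 583 and 719 CPM in ULA and 301 and 416 CPM in BUS, lie on the same side as the spermatocyte and spermatid lists, and the spermatogonia and somatic lists lie on the other, with overlap for macrophages.

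Promoter sequence around the transcription start in RefSeq (GRCm38.p6) was at hand for 7 of the 9 members. The cyclic AMP response element TGACGTCA, to which the spermatid regulator CREM binds, its core TGACG and the TATA box letters TATAAA were sought on both strands; the core lies within the full element. They were in 1.79%, 20.8% and 13.6% of 32851 promoters, and in 0 of the 7 members for each. This says only that these letters are not in these windows.

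The sign of the fold change held for 8 of the 9 members under every alternative setting, *Prss41* being the exception. Upper-quartile scaling moved the median of all genes by 0.28 and the median of the members to 0.99, and library size as the sole scaling moved them by -0.23 and to 0.48, so a member's change is read relative to those shifts. With upper-quartile scaling 64.4% of all calls were higher and with library size alone 27.2%, against 43.5% with TMM. With protein-coding genes alone, which leaves out the identifier that took up to 18.5% of the counts of a ULA library, the median of the members was 0.90 and 5 passed as higher.

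**Figure D4:**
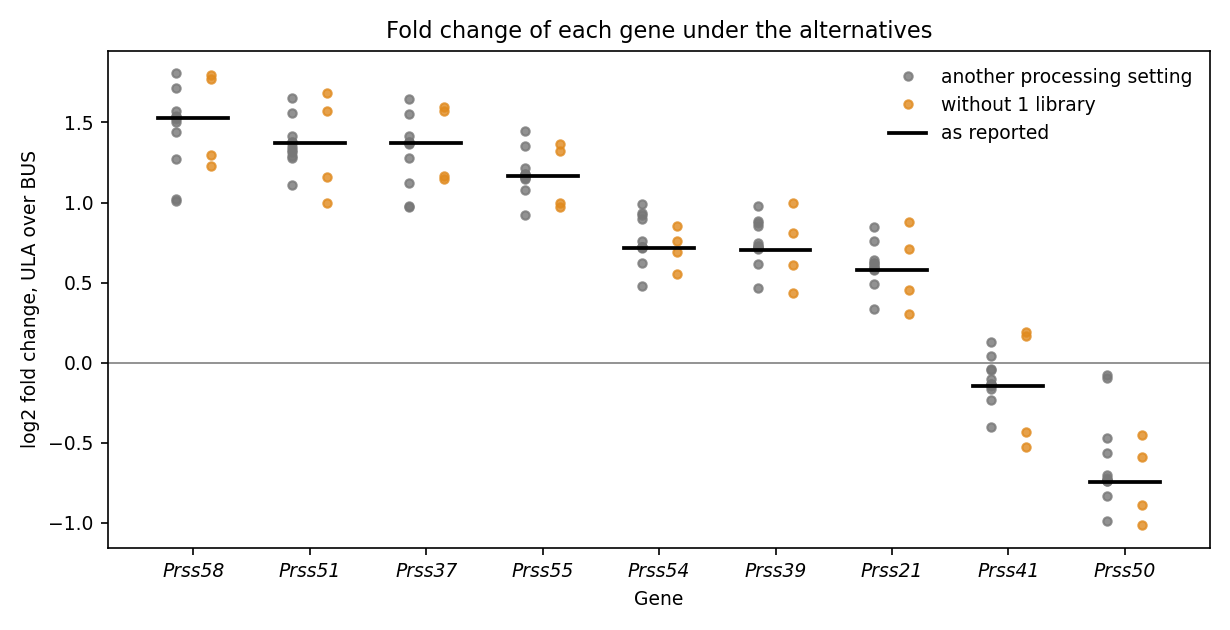
Log2 fold change of each member under the other processing settings (grey) and without 1 library at a time (orange), with the reported value as a black bar. All points of *Prss58*, *Prss51*, *Prss37* and *Prss55* lie above 0.92, those of *Prss50* lie below 0, and those of *Prss41* lie on both sides of 0.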

How the data were processed

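Testis mRNA libraries (RNA extracted with Trizol) of 2 ULA and 2 BUS samples were used. What the authors deposited are unnormalised whole-number counts for Ensembl genes. For read trimming the paper gives Fastp, for mapping STAR (on GRCm38) and for counting FeatureCounts, and the submitters' processing notes name RSEM 1.3.1; which of them made the counts, and the strand setting, are not given in the sources used here. Count columns were mapped to samples by group and number in their names; the ULA columns end in a letter A that no source used here explains.

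GENCODE M21 gave a symbol to 52081 of 57010 identifiers and also gave coordinates, lengths and GC content. Genes were filtered by filterByExpr of edgeR 4.0.16 (at least 10 counts and 15 in total), TMM scaled and tested by its quasi-likelihood test in R 4.3.3 without a covariate, with Benjamini-Hochberg adjustment. The fit's biological coefficient of variation came to 0.242. CPM are TMM scaled, given with SD over 2 libraries. DESeq2 1.42.0, limma-voom 3.58.1, a smooth GC and length offset (mgcv 1.9.3, 8 basis functions) and the other settings named in the text were alternatives. The scripts were tested on simulated data, where edgeR called 16% of the 2-fold changes and 95% of the 4-fold changes. A gene that did not pass may therefore still differ by about 2-fold. The limit for a count of 0 was 3 counts per library and covers counting error only.

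Coding sequences were built from the annotation, translated and aligned to *Prss1* with MAFFT 7.526, and pairwise with Biopython 1.88 as a check. Promoters came from RefSeq. The members and lists were chosen with earlier results of these data known. Named were all members, all other testis serine proteases and, of each further list, up to 3 genes by lowest p, or, with none past the test, the 2 most abundant; other names are marked.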

Additional observations from a re-analysis of the deposited data

How the results depend on the processing

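Of the 9 members, *Prss37*, *Prss51*, *Prss55* and *Prss58* kept their direction in all 16 refits and lost the call in 1, without ULA replicate 2. Over all genes 2706 passed as higher and 3512 as lower, and of the listed genes other than the members 27 and 36. With upper-quartile scaling 4282 genes and 42 listed genes were higher, and with library size alone 12 listed genes were higher and 1 member lower. Protein-coding genes alone gave 1475 higher and 2258 lower. An unadjusted p under 0.05 with a fold over 1.5 gave 4464 genes and 41 listed genes higher and 1 member lower. Leaving out 1 library gave 656 to 5556 genes higher and 714 to 6429 lower, 0 to 7 members higher and 0 to 1 lower, and 1 to 59 listed genes higher and 13 to 58 lower. Of the 63 listed genes called, 50 lost the call without ULA replicate 2 and 0 without BUS replicate 2. The cause of these differences was not tested.

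The labels number the libraries of both groups 1 and 2 but do not say that a number marks a shared litter, batch or day. Deviations of same-numbered libraries correlated at 0.33 across 23023 genes, with 2 pairs. With the replicate number as a block, 5151 genes and 54 listed genes passed as higher and 5901 genes as lower, with 7 members higher, *Prss21* (adjusted p 0.0166) and *Prss39* (0.00429) added, and 1 lower (*Prss50*, log2 fold change -0.72, adjusted p 0.0117, edgeR). With the block and the GC content and length correction together, 5106 genes and 52 listed genes were higher, 5494 genes lower, and 7 members higher.

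The sign turned for *Prss41* with upper-quartile scaling (0.13), protein-coding genes alone (0.040), and without BUS replicate 2 or ULA replicate 1, its values without 1 library running from -0.53 to 0.19. It turned for *Prss44* with library size alone (-0.057), for *Tmprss12* with library size alone (-0.046), the GC content and length correction (-0.0084) and without BUS replicate 1 (-0.046 to 0.41 without 1 library). *Lyz2* and *Mrc1* turned without BUS replicate 1, and without 1 library they ran from -1.96 to 0.26 and from -1.16 to 0.25. With 54 to 116 counts a library, *Prss41* is the member whose depth limits it most.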

Other observations

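Of the macrophage markers, none of which passed edgeR's quasi-likelihood test, the 2 most abundant differed within the BUS group more than between the groups. *Lyz2*, the lysozyme gene of myeloid cells, had 58.3 and 32.7 CPM in the ULA libraries, against 175.1 and 37.6 CPM in the BUS libraries. *Mrc1*, the mannose receptor of tissue macrophages, had 67.2 and 54.2 CPM in the ULA libraries, against 134.0 and 50.4 CPM in the BUS libraries. BUS replicate 1 was the high library for both genes.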
